A study of Mus musculus with 4 samples.

Results

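Genes of antigen presentation by the major histocompatibility complex (MHC) were followed in RNA of mouse epidermis. They were chosen by symbol, as every gene whose name begins with H2- together with B2m, Tap1, Tap2, Tapbp, Cd74, Ciita, Nlrc5, Mr1 and Cd1d1, which gave 40 of the 17958 genes in the deposited table. Of these, 2 are classical class I genes, 21 are non-classical class I or class I-like genes, 9 are class II genes, 7 encode processing factors or regulators, and 1, H2-Ke6, carries the name without presenting antigen. In all, 32 of the 40 passed the filter on low counts and 8 did not.

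The epidermis of mice labelled IL-36Ra-cKO was compared with that of mice labelled IL-36Rafl/fl (written fl/fl below), with 2 libraries per group and no treatment in either. IL-36Ra is the secreted antagonist of the IL-36 receptor, encoded by Il36rn, and floxed alleles without deletion are the usual control of a conditional knockout (cKO). The genotype label calls the first group a knockdown and the second WT, and the tissue label names epidermal keratinocytes, although the protocol lyses tissue. The labels give neither the Cre driver, nor age or sex, nor whether animals were pooled or kept separate for each library, so the p-values rest on the spread between these 4 libraries alone, which may be technical.

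MHC class I molecules sit on nearly all nucleated cells and show peptides made in the cytosol to CD8 T cells. Each is a heavy chain paired with beta-2 microglobulin and loaded in the endoplasmic reticulum, where the TAP transporter brings in the peptides. Class II molecules are made mainly by professional antigen-presenting cells, in epidermis the Langerhans cells, and show peptides from endosomes to CD4 T cells. Interferon gamma is the best known inducer of both classes, working through the coactivators NLRC5 for class I and CIITA for class II.

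The libraries held 14622791 to 16490602 counts. Y-linked genes were high in both cKO-labelled libraries, with Ddx3y at 28.6 and 36.4 TPM (a level scaled to transcript length and to the library's total) against 0 and 0.02, so an apparent difference in sex went with the genotype label and cannot be told apart from it. The targeted gene, listed under its older symbol Il1f5, had 222 and 165 CPM (counts scaled to library size) in cKO replicates 1 and 2 against 254 and 203 in fl/fl, a log2 fold change of -0.24 ± 0.24 SE (adjusted p = 0.509 in edgeR), so its RNA was not lost. A gene total cannot tell a deleted exon from an intact one. Keratinocyte markers were abundant, with 12 genes summing to 23580 to 30020 TPM, and dermal, muscle, hair follicle and immune cell genes were read as well. cKO replicate 2 stood apart, with 2031 TPM of 12 skeletal muscle markers against 71.6 to 177 in the other libraries and 20.3 TPM of 17 hair follicle markers against 3521 to 10850.

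Most antigen presentation genes stood higher in the cKO-labelled libraries, class I and class II alike. Of the 32 tested, 30 had a positive log2 fold change (cKO minus fl/fl throughout), with a median of 1.13 against 0.000221 over all 14459 genes tested. None passed an adjusted p of 0.05 in edgeR's quasi-likelihood test, a threshold that 0.0277% of all genes passed upward and 0% downward. At an unadjusted p under 0.05, 26 of the 32 were higher and 1, Cd1d1, was lower, where 16.5% of all tested genes stood higher and 15.6% stood lower. Adjusted p of those 26 ran from 0.0656 to 0.141, and 24 of them lay under 0.1, all on the higher side, as did 8.53% of all genes upward and 6.69% downward. DESeq2 called 25 members higher and Cd1d1 lower at an adjusted p of 0.05, where it called 7.64% of genes higher and 9.53% lower. The libraries of the groups did not overlap in 28 members on the higher side and in 1 on the lower side, where 34.8% and 32.9% of all genes did so.

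The count of 26 members higher at an unadjusted p under 0.05 became 25 when cKO replicate 1 was left out and 23 when cKO replicate 2 was. It became 21 without replicate 1 of fl/fl and 27 without its replicate 2, and in the last fit Cd1d1 no longer had an unadjusted p under 0.05. The median over the 32 was 1.23, 1.06, 1.06 and 1.35 in those fits, in that order.

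**Figure D1:**
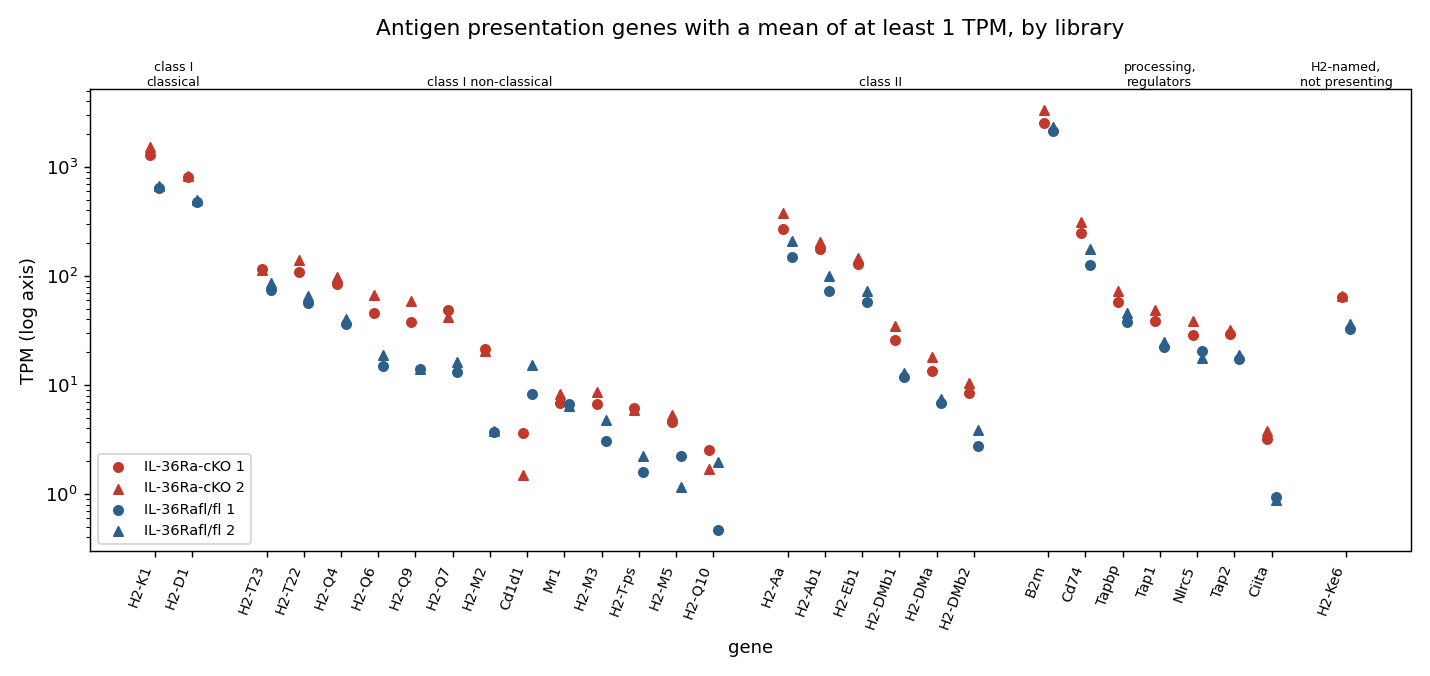
TPM on a log axis of the 29 members with a mean of at least 1 TPM, by group of genes, with 1 point per library (red cKO-labelled, blue fl/fl-labelled, circle replicate 1, triangle replicate 2). In every gene shown except Cd1d1 and H2-Q10 both red points lie above both blue points; in Cd1d1 both lie below, and in H2-Q10 the groups overlap.

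Classical class I heavy chains were the most abundant heavy chains. H2-K1, which encodes the K molecule, was at 1278 and 1534 TPM in cKO replicates 1 and 2 and at 638 and 669 TPM in the fl/fl-labelled libraries. The groups stood well apart, and the fitted fold was 2.47 (95% interval 1.65 to 3.69; log2 fold change 1.30 ± 0.22 SE, adjusted p = 0.0732). H2-D1, which encodes the D molecule, was at 806 and 836 TPM against 482 and 497 TPM, a log2 fold change of 0.94 ± 0.20 (adjusted p = 0.0819). B2m, the shared light chain, was the most abundant member of all, at 2542 and 3322 against 2122 and 2336 TPM. Its groups also did not overlap, but its log2 fold change of 0.65 ± 0.23 (adjusted p = 0.141) was the smallest among the 26. Summed over 21 heavy chain genes, class I heavy chains reached 1.01 and 0.883 times the TPM of B2m in cKO replicates 1 and 2, against 0.632 and 0.610 times in fl/fl. That ratio did not overlap between the groups, and an exact permutation test of 2 against 2 libraries, two-sided, gave 0.333, the smallest p it can give.

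Promoter windows of these genes are shown to describe the motifs they hold. Any link between a motif and the fold changes was not tested. Windows span 250 bases before to 50 bases after a RefSeq start (GRCm38.p6, an older build than the GRCm39 of the deposited data), and capitals mark matches to CCAAT, the core of the Y box bound by NF-Y, to TTCNNNGAA, a STAT-type site, and to an interferon response factor site of 2 GAAA repeats with 2 bases between them, on both strands. In the windows printed no match overlaps a match of another motif. H2-K1 (chr17:34000298-34000597, minus strand), shown for 1 of its listed starts, holds 2 CCAAT matches, beginning 16 and -8 bases before that start. The minus sign marks a place after the start. For its other listed start the matches begin 30 and 6 bases before it. H2-D1 (chr17:35262844-35263143, plus strand) holds 2 CCAAT matches, beginning 76 and 53 bases before the start. B2m (chr2:122147437-122147736, plus strand) holds 1 match to CCAAT, beginning 53 bases before the start, and 1 to the GAAA repeat, beginning 139 bases before it.
H2-K1: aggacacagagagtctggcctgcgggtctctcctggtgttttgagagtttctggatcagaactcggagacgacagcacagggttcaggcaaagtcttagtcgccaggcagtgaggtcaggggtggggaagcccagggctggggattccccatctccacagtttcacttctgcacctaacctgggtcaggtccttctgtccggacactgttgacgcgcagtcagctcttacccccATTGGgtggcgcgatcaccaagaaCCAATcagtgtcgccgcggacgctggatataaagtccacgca
H2-D1: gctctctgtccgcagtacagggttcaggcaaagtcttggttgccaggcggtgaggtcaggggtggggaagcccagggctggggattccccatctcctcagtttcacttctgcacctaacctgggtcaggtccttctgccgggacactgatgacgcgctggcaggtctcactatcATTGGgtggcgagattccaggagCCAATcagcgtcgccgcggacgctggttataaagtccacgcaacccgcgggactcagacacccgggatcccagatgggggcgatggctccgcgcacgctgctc
B2m: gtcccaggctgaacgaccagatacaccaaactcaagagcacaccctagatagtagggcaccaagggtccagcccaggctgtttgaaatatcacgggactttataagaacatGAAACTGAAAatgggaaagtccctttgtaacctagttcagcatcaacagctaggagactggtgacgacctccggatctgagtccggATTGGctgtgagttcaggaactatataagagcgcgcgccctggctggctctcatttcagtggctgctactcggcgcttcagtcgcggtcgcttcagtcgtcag
Of the 31 members with a window, 27 had CCAAT in at least 1 window, as did 21 of the 24 tested among them. By window it was 29 of 34, against 37.4% of 32851 windows over all genes. Members without a higher value also had CCAAT, such as H2-M9 (log2 fold change 0.09). TTCNNNGAA was found in 3 of the 34 windows (8.3% of all windows) and the GAAA repeat in 3 (3.44%). Windows of paralogs resemble each other, with 79.9% identity between those of H2-D1 and H2-Q6 and 75% between those of H2-Q6 and H2-Q7, so they are not independent. A match is a description of the letters only. Only exact matches to these patterns were sought, so an unmarked window may still hold a site that departs from them.

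Among the non-classical class I genes, 10 of 15 tested were higher at an unadjusted p under 0.05 and 1 was lower. H2-M2 had the largest fitted change of the members, at 21.2 and 20.7 TPM in the cKO-labelled and 3.74 and 3.80 TPM in the fl/fl-labelled libraries (6.42-fold, 95% interval 4.38 to 9.43; log2 fold change 2.68 ± 0.21, adjusted p = 0.0656). The replicates lay close together and the groups far apart. H2-Q4 was at 84.0 and 97.8 against 36.1 and 40.7 TPM, and the Qa-2 gene H2-Q7 at 48.6 and 41.7 against 13.3 and 16.3 TPM. H2-Q6 (46.1 and 67.0 against 15.1 and 18.9 TPM) and H2-Q9 (37.7 and 59.2 against 14.0 and 14.0 TPM) were alike. All 4 of these H2-Q genes were without overlap, with log2 fold changes of 1.44 ± 0.17, 1.76 ± 0.21, 1.92 ± 0.25 and 2.09 ± 0.25 in the order given.

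The window of H2-M2 (chr17:37483505-37483804, minus strand), shown because this gene differed most, has 1 CCAAT match that begins 84 bases before the start.
H2-M2: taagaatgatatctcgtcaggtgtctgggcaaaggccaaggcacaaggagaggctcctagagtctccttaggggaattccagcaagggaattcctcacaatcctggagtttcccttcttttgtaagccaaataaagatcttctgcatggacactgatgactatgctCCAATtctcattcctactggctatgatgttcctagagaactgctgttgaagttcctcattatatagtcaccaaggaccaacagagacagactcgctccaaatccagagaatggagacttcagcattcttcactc

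In the H2-T and remaining H2-M loci, H2-T23, which encodes Qa-1, the ligand of the inhibitory NK cell receptor CD94/NKG2A, was at 115 and 115 against 74.0 and 86.3 TPM (log2 fold change 0.73 ± 0.17). H2-T22, whose product is recognised by some gamma delta T cells, was at 109 and 140 against 56.8 and 66.2 TPM (1.21 ± 0.21). H2-M3, which presents N-formylated peptides, was at 6.64 and 8.55 against 3.04 and 4.78 TPM (1.08 ± 0.32). The less abundant H2-T-ps (1.89 ± 0.34) and H2-M5 (1.77 ± 0.42) were at 5.96 to 6.22 and 4.55 to 5.35 TPM in the cKO-labelled libraries and at 1.60 to 2.22 and 1.15 to 2.24 TPM in the others. H2-Q10 overlapped between the groups, at 2.53 and 1.68 against 0.47 and 1.97 TPM.

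The split of class I reads between loci rests on how the authors' software assigned reads among paralogs. In GENCODE vM21 transcripts, 0.957% of the distinct stretches of 100 bases of H2-K1 also occur in another gene, and 3.59% of those of H2-D1, 10.8% of H2-Q6, 12% of H2-Q7 and 8.86% of H2-T22, while H2-M2 and H2-M3 share 0. No transcript there carries the symbol H2-Q9, so H2-Q9 has no such value. Sharing of the other genes with H2-Q9 was therefore not counted. When counts of all 21 heavy chain genes were summed to 1 feature before the fit, the log2 fold change was 1.19 ± 0.23 (adjusted p = 0.0769), which is a value that does not depend on how reads were split among those 21 genes. Summed by family, it was 1.16 ± 0.22 for H2-K1 and H2-D1, 1.69 ± 0.21 for H2-Q, 1.02 ± 0.20 for H2-T and 1.90 ± 0.17 for H2-M genes. H2-Q genes took 8.54% and 9.11% of class I heavy chain TPM in cKO against 5.88% and 6.46% in fl/fl. Their ratio to H2-K1 and H2-D1 did not overlap between the groups (two-sided exact permutation p = 0.333, the smallest possible). H2-K1 alone took 46.95% to 52.28% and H2-D1 28.5% to 35.91% over the 4 libraries.

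The class I-like genes behaved otherwise. Cd1d1, which presents lipids to NKT cells and pairs with B2m, was at 3.60 and 1.51 TPM in the cKO-labelled and 8.33 and 15.2 TPM in the fl/fl-labelled libraries. It was the one tested member without overlap on the lower side, at a log2 fold change of -1.92 ± 0.58 (adjusted p = 0.114), and its unadjusted p was 0.0229. The log2 fold change was -2.83 without cKO replicate 1 and -1.37 without cKO replicate 2. The summed hair follicle markers had the same order of libraries as Cd1d1, at 3521 and 20.3 against 10630 and 10850 TPM, and their part in this difference was not tested. In transcripts, 10.5% of the 100-base stretches of Cd1d1 are shared with its neighbour Cd1d2. Mr1, which presents vitamin B metabolites to MAIT cells, was at 6.91 and 8.25 against 6.75 and 6.38 TPM. Its groups lay close without overlapping, at a log2 fold change of 0.39 ± 0.20 with a 95% interval of the fold from 0.915 to 1.87.

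**Figure D2:**
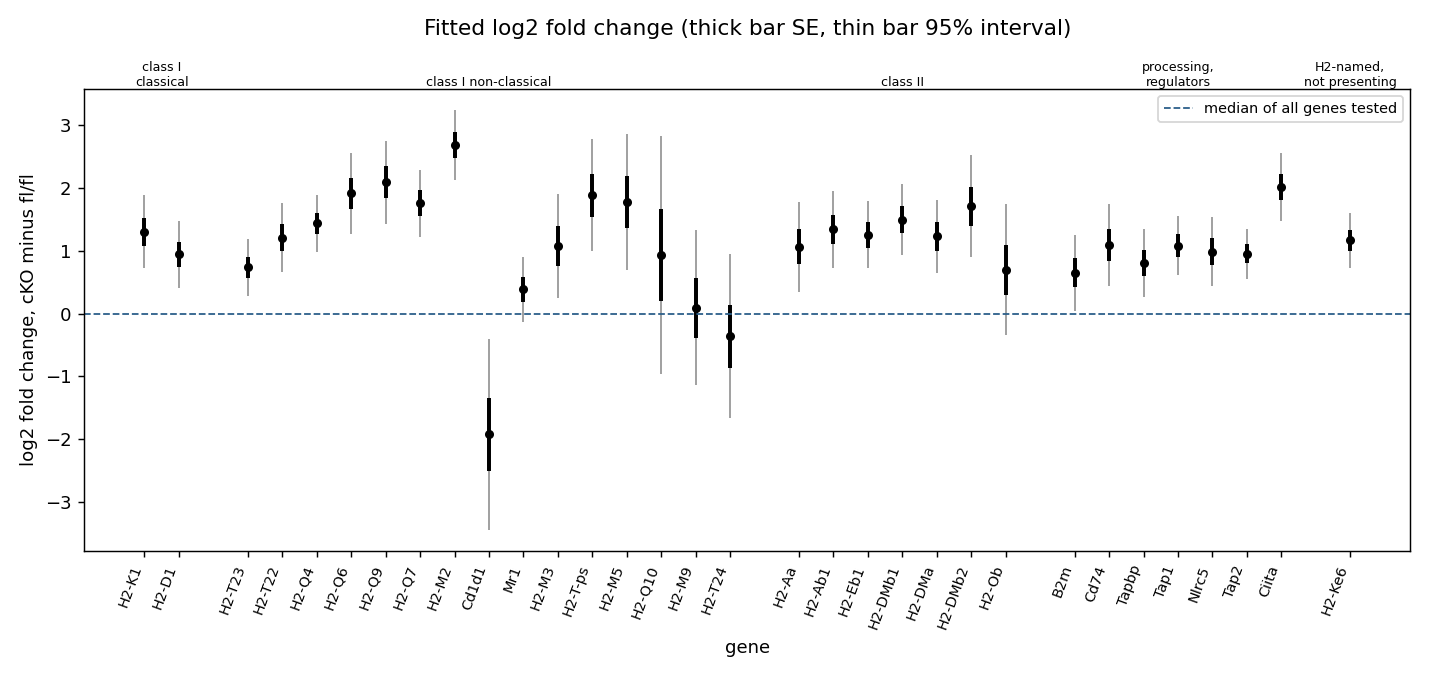
Fitted log2 fold change, cKO minus fl/fl, of the 32 tested members by group of genes, with SE as thick and 95% intervals as thin bars; the dashed line is the median of all genes tested. The values run from -1.92 for Cd1d1 to 2.68 for H2-M2, and 30 of 32 lie above the line.

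Peptide transport and loading genes stood higher too. The transporter subunits Tap1 (39.1 and 49.3 against 22.5 and 24.6 TPM) and Tap2 (29.5 and 32.2 against 17.3 and 18.9 TPM) had log2 fold changes of 1.08 ± 0.18 and 0.95 ± 0.15. Tapbp, which encodes tapasin, the bridge between TAP and the empty class I molecule, was at 58.1 and 72.3 against 38.1 and 45.9 TPM (0.81 ± 0.21). None of these 3 overlapped between the groups.

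Of the 7 class II genes tested, 6 were higher at an unadjusted p under 0.05. H2-Aa and H2-Ab1 encode the alpha and beta chains of I-A, and H2-Eb1 encodes the beta chain of I-E. H2-Ab1 was at 176 and 205 TPM in the cKO-labelled and 73.4 and 101 TPM in the fl/fl-labelled libraries, a fold of 2.53 (95% interval 1.66 to 3.87; log2 fold change 1.34 ± 0.23, adjusted p = 0.0733). H2-Aa was at 268 and 377 against 150 and 208 TPM (1.07 ± 0.28), and H2-Eb1 at 128 and 146 against 58.4 and 72.9 TPM (1.26 ± 0.21). All 3 chains were free of overlap between the groups, and no stretch of 100 bases in their transcripts is shared with another gene. Cd74, the invariant chain that guards the class II groove, was at 249 and 314 against 128 and 177 TPM (1.09 ± 0.25).

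The windows of H2-Aa and H2-Eb1 are shown for comparison with those of class I. In that of H2-Aa (chr17:34287774-34288073, minus strand) 1 CCAAT match begins 48 bases before the start, and in that of H2-Eb1 (chr17:34305617-34305916, plus strand) the matches begin 59 and 35 bases before it.
H2-Aa: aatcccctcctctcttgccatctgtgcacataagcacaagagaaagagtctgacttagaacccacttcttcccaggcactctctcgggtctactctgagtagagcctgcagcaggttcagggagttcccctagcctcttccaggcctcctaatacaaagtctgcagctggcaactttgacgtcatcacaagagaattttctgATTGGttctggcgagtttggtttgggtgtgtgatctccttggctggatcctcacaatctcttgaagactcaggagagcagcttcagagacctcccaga
H2-Eb1: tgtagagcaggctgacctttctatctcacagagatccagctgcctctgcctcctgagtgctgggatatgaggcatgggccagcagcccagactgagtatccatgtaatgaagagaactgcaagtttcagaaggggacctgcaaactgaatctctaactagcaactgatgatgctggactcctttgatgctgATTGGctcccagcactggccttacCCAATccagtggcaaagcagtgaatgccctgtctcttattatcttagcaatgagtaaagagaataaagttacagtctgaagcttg
Of the 8 class II genes with a window, all 8 had CCAAT in at least 1 of them, and 8 of their 9 windows held it.

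The peptide exchange factor H2-DM was higher with the chains it serves. Its alpha chain gene H2-DMa was at 13.4 and 18.2 against 6.91 and 7.51 TPM (log2 fold change 1.23 ± 0.22). The beta chain genes H2-DMb1 (25.8 and 34.7 against 11.8 and 12.9 TPM) and H2-DMb2 (8.48 and 10.4 against 2.75 and 3.89 TPM) had 1.49 ± 0.22 and 1.71 ± 0.31. These beta chain genes share 11.3% and 10.3% of their 100-base stretches with each other. H2-DM genes together were at 0.0834 and 0.0871 of the summed TPM of the 3 class II chains in cKO against 0.0765 and 0.0637 in fl/fl. H2-Ob, the beta chain of the DM inhibitor H2-O, was under 1 TPM in all libraries (0.60 to 0.76 against 0.47 to 0.48 TPM, log2 fold change 0.70 ± 0.40).

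The summed TPM of H2-Aa, H2-Ab1 and H2-Eb1 was 571 and 728 in cKO against 281 and 382 in fl/fl. Divided by class I heavy chains, it was 0.223 and 0.248 against 0.210 and 0.268, so this ratio overlapped between the groups (two-sided exact permutation p = 1).

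Both coactivators were higher, Ciita by a larger ratio than Nlrc5. Ciita, the coactivator of class II genes, was at 3.18 and 3.76 TPM in the cKO-labelled and 0.93 and 0.88 TPM in the fl/fl-labelled libraries, a fold of 4.04 (95% interval 2.77 to 5.88; log2 fold change 2.01 ± 0.21, adjusted p = 0.0656). Nlrc5, the coactivator of class I genes, was at 29.0 and 39.0 against 20.6 and 17.9 TPM (0.99 ± 0.21, adjusted p = 0.0819). The groups were separate for both, and the difference between the genes was not tested.

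H2-Ke6, a steroid dehydrogenase gene that only shares the name, was higher by as much as the presenting genes. It stood at 64.9 and 65.9 against 32.9 and 36.2 TPM (1.17 ± 0.17, adjusted p = 0.0678). In transcripts, 61.6% of its 100-base stretches are shared with Gm20427, so its counts are uncertain. The members not yet named were near the detection limit. H2-M9 and H2-T24, both tested and both under 1 TPM in mean, stood at 0.09 ± 0.47 and -0.36 ± 0.50 on the log2 fold scale, and the 8 members not tested had at most 8 counts in any library and a mean of at most 0.63 TPM.

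Outside the members, genes of the immunoproteasome were higher and general chaperones were not at an unadjusted p under 0.05. Of 13 listed genes, 6 stood higher and 0 lower by that p (16.5% and 15.6% of all genes), with a median log2 fold change of 0.50. The immunoproteasome subunits Psmb8 and Psmb9 were at 52.3 and 73.8 against 30.9 and 31.2 TPM and at 42.9 and 47.8 against 23.3 and 25.6 TPM (1.24 ± 0.20 and 1.17 ± 0.19), and the proteasome activator subunit Psme2 at 0.61 ± 0.18. The chaperones Calr, Canx and Pdia3 and the trimming peptidase Erap1 had log2 fold changes of 0.17, -0.53, -0.24 and -0.26, none at an unadjusted p under 0.05. Among 14 class II pathway genes, the thiol reductase Ifi30 was higher (0.85 ± 0.18) and the protease Lgmn lower (-0.83 ± 0.30) at that p, with a list median of -0.15.

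Listed genes of the interferon gamma signal and its targets outside the members had a median near that of all genes. The list holds no antigen presentation member and neither Psmb8 nor Psmb9, so its count and median leave out those genes, Ciita and Nlrc5 among them. Of 21 listed genes of the signal and its targets tested, 2 stood higher and 2 lower at p under 0.05, unadjusted, with a median log2 fold change of 0.13. Over all genes tested, 16.5% stood higher and 15.6% lower at that p, and none of the list counts in this paragraph exceeds that share. The receptor chain Ifngr1 was higher (84.2 and 98.0 against 49.9 and 53.6 TPM, 1.00 ± 0.17), as was the feedback inhibitor Socs1 (1.19 ± 0.30). The chemokine gene Cxcl10, a classical target, was lower, at 0.92 and 2.02 against 6.08 and 4.81 TPM (-1.66 ± 0.45), and so was the kinase gene Jak2 (-0.90). The guanylate-binding protein genes Gbp2, Gbp4 and Gbp5 were at 0.07, 0.06 and -0.04 and the transcription factor gene Irf1 at 0.55, none at an unadjusted p under 0.05. Ifng itself had too few counts to be tested. Of 18 type I interferon targets 1, Usp18, was higher (1.86 ± 0.46) and 0 lower, with a median of 0.10. Of the 17 listed transcription factors of MHC promoters, 2 were higher (Spi1 and the RFX subunit Rfxap at 0.85 and 0.54) and 2 lower (Kat2b and Creb1 at -1.10 and -0.90), and the median was 0.17.

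MHC-like genes and receptors outside the members gave a mixed count. Of 6 such MHC-like genes tested, 2 stood higher and 2 lower at p under 0.05, unadjusted, among them Mill1, at 63.7 and 81.6 against 43.5 and 37.4 TPM (1.03 ± 0.20). Of 7 receptors for MHC molecules tested 2 were higher and 0 lower, the activating receptor gene Klrk1 (1.19 ± 0.26) and Lag3, which binds class II (1.47 ± 0.43). The shares over all genes tested were 16.5% higher and 15.6% lower.

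Langerhans and dendritic cell markers were higher in sum, macrophage and monocyte markers overlapped between the groups, and T and NK cell markers were mostly higher. In bulk RNA, more cells of a type and more RNA per cell cannot be told apart. The 20 Langerhans and dendritic cell markers summed to 75.6 and 92.6 TPM in the cKO-labelled and 57.9 and 56.0 TPM in the fl/fl-labelled libraries. Of 17 tested, 4 stood higher and 1 lower at p under 0.05, unadjusted, against 16.5% and 15.6% of all genes, with a median log2 fold change of 0.53. Cd207, which encodes the Langerhans cell lectin langerin, was at 23.6 and 28.7 against 15.7 and 11.4 TPM (1.15 ± 0.22), while the lectin genes Mgl2 and Cd209a of dermal dendritic cells had 1.83 ± 0.28 and 1.37 ± 0.26. The chemokine gene Ccl22 was higher as well (1.58 ± 0.35), and Fscn1, a gene of mature dendritic cells, was lower, at 6.19 and 6.16 against 12.1 and 14.9 TPM (-0.95 ± 0.21). The costimulatory gene Cd80 and the growth factor receptor gene Flt3 had -1.21 ± 0.56 and -1.15 ± 0.76, neither at an unadjusted p under 0.05. Both were picked after the values were seen, and with a list median of 0.53 most of the tested markers had positive values. Mgl2, Cd209a and Cd207 had the smallest unadjusted p of the list, and all stood higher. They were set apart after the values were seen. Without them the list summed to 29.8 and 37.1 against 34.3 and 34.7 TPM, and the groups overlapped. Since the genes with the clearest rise were taken out, that overlap cannot tell whether the marker list follows the class II chains. The class II chains divided by the full sum gave 7.56 and 7.86 against 4.86 and 6.83, without overlap. Macrophage and monocyte markers did not follow, at 324 and 378 against 297 and 564 TPM, with 0 of 19 tested genes at an adjusted p or an unadjusted p under 0.05 in edgeR and a median of -0.11. Ptprc, the gene of the pan-leukocyte surface protein CD45, overlapped between the groups, at 4.63 and 8.50 against 10.4 and 6.44 TPM. B and plasma cell markers summed to 151.8 and 152.2 against 139.4 and 148.5 TPM, without overlap. Most of each sum came from Xbp1, at 144.5 and 142.6 against 133.2 and 142.9 TPM. Among the 4 tested genes only Cd37 (1.32 ± 0.39) reached p under 0.05 before adjustment. Blk, Xbp1 and Jchain had 1.07, 0.24 and -0.71, and the list median was 0.66. The B cell genes Ms4a1 and Cd79a of this list were at or near 0, at no more than 0.44 TPM in any library. T and NK cell markers summed to 168 and 197 against 104 and 123 TPM, with a median log2 fold change of 1.42. At an unadjusted p under 0.05, 11 of their 15 tested genes were higher and 0 lower, against 16.5% and 15.6% of all genes. The part of the T and NK cell markers and of the Langerhans and dendritic cell markers in the class I and class II values was not tested.

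**Figure D3:**
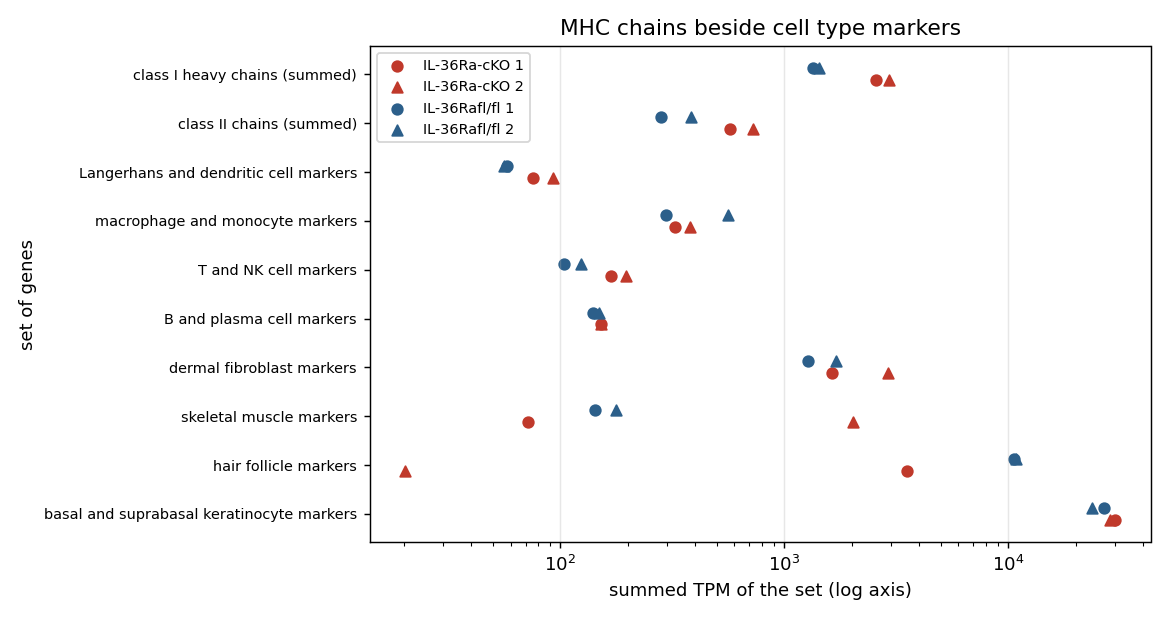
Summed TPM, on a log axis, of 21 class I heavy chain genes, of the 3 class II chains and of 8 lists of cell type markers, with 1 point per library (red cKO-labelled, blue fl/fl-labelled, circle replicate 1, triangle replicate 2). Class I, class II, Langerhans and dendritic cell, and T and NK cell sets have both red points above both blue ones. The same holds for the B and plasma cell markers and for the basal and suprabasal keratinocyte markers. Macrophage and dermal fibroblast markers overlap, and muscle and hair follicle markers set cKO replicate 2 apart.

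Immediate early genes were higher in the cKO-labelled libraries, and fold changes went with transcript length. The part of either in the members' values was not tested. Immediate early and heat shock genes summed to 2194 and 1114 TPM in the cKO-labelled and 947 and 887 TPM in the fl/fl-labelled libraries. Of these, 8 of 15 were higher at an unadjusted p under 0.05 and 0 lower, where 16.5% and 15.6% of all genes were. Genes with short transcripts were higher and those with long ones lower, since the median log2 fold change over all genes went from 0.41 in the shortest to -0.36 in the longest of 10 equal bins. After the median of its length bin was subtracted from each gene, the 32 members had a median of 1.05 and 29 were above 0. On the log2(TPM + 1) scale the median over all genes was -0.16 and that over 29 members 1.00. A gene's length largely cancels in a ratio between groups, so this scale does not remove the length trend.

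Position along chromosome 17 was a further shared feature. In RefSeq gene order, 25 tested members lie in the interval from Tapbp to H2-M2, a set without H2-Q9, and 98 other tested genes lie among them. Of those 98, most of which have no part in antigen presentation, 33 (33.7%) had an unadjusted p under 0.05 on the higher side and 1 (1.02%) on the lower, and 85 had positive values with a median log2 fold change of 0.42. Outside the interval, 572 other genes of the chromosome had 22.4% higher and 9.62% lower and a median of 0.15. The genes directly beside H2-K1 and H2-Ke6 were Vps52, at 0.41 ± 0.16, the Polycomb gene Ring1, which lies between them, at 0.71 ± 0.21, and the zinc transporter gene Slc39a7, at 0.45 ± 0.17. Of these 3, Ring1 alone had an unadjusted p under 0.05. After subtraction of the length bin medians, the 98 had a median of 0.33 and 76 were above 0. The interval also holds Psmb8, Psmb9, the heat shock gene Hspa1a (1.59 ± 0.18) and the cytokine gene Tnf (2.61 ± 0.35). It was looked at after the values of the members were known.

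**Figure D4:**
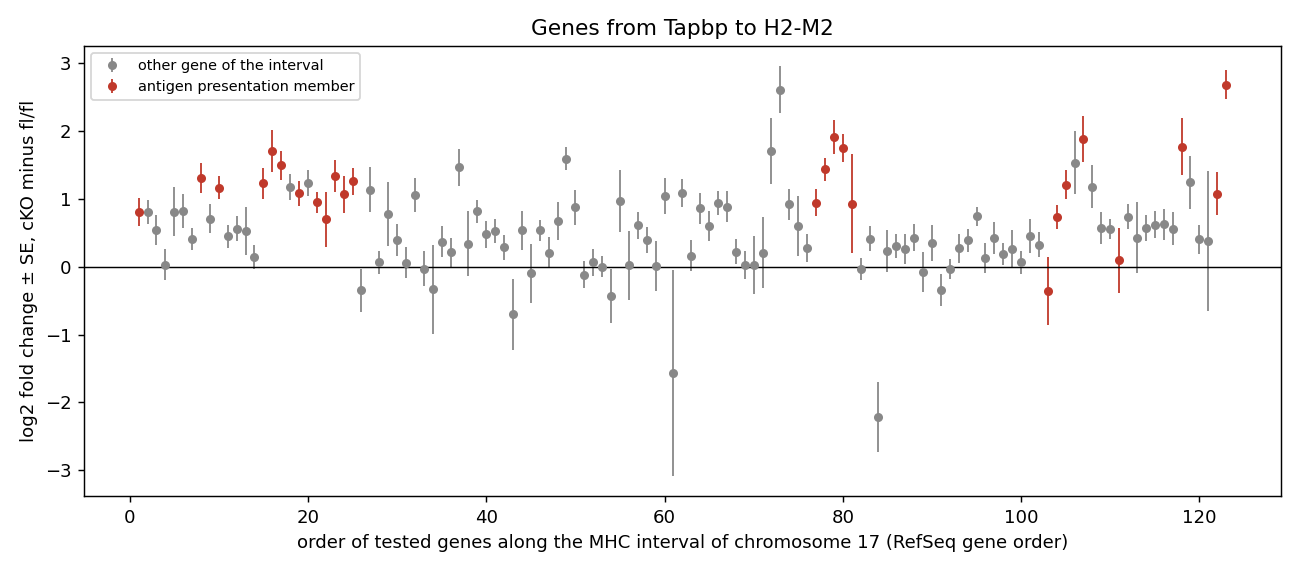
Log2 fold change ± SE, cKO minus fl/fl, of 123 tested genes in RefSeq order along the MHC interval of chromosome 17, members in red and other genes in grey. The tested member H2-Q9 is not shown. Of the grey points 85 of 98 lie above 0, and most red points lie higher, at a median of 1.21.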

How the data were processed

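Epidermal mRNA from 2 IL-36Ra-cKO and 2 IL-36Rafl/fl libraries was enriched with oligo(dT) beads, per the labels' protocols. The build GRCm39 and the tools RSEM 1.3.1, Bowtie2 2.3.4.3 and DESeq2 1.4.5 are named in the submitters' processing notes, which state neither their roles nor their sequence. No source used here names the annotation. The deposited estimated counts per gene are not normalized, and 11.05% to 13.02% of a library's values are not whole. Levels were read from the authors' own TPM columns, as deposited.

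Counts were rounded and tested over all genes with edgeR 4.0.16 (quasi-likelihood F test, TMM scaling, filterByExpr with defaults, group as the only term; R 4.3.3, limma 3.58.1), giving 2 residual degrees of freedom, with Benjamini-Hochberg adjustment at 0.05. SE is the fold change over the root of F, and CPM is TMM-scaled. The test ran on 14459 of 17958 genes. The script was tested on simulated data. Alternatives included DESeq2 1.42.0, limma-voom, limma-trend on TPM, other scalings and filters, a replicate block and leaving out each library. Deposited FPKM, normalized counts and group means were not used.

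The members and lists were chosen with earlier results of these data known. Members with a mean of at least 1 TPM were named, as were up to 3 genes per list with the smallest p; other genes were chosen after their values were seen. Promoters came from RefSeq (GRCm38.p6) by gene ID, for 31 of the 40 members. Intervals cover the spread between libraries, and strand use in the library preparation is not given in the sources used here.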

Additional observations from a re-analysis of the deposited data

How the results depend on the processing

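The count of all genes at an adjusted p under 0.05 was 4, and that of members 0. With upper-quartile factors the counts were 388 and 8, without scaling factors 1359 and 19, with DESeq2 2540 and 26, and at an adjusted p under 0.1 they were 2201 and 24. Leaving out 1 library gave 0 to 887 genes and 0 to 7 members, both highest without cKO replicate 1. With the replicate number as a block (replicate block) the counts were 4 and 0, as in the fit without it, and 26 members were at an unadjusted p under 0.05 where 27 were without it. The labels do not say whether the numbers pair the libraries. The deviations of same-numbered libraries correlated at -0.159 across genes, which with 2 libraries per group cannot settle it. With the crossed pairing, added after seeing the data, 0 genes and 0 members were called.

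The median log2 fold changes of the 4 gene groups stayed positive in every alternative. The classical class I median of 1.12 was 0.92 on log2(TPM + 1), 0.92 on log2(TPM + 0.1) and 0.95 with the length bin medians subtracted (added after seeing the data), and the non-classical median of 1.21 was then 1.04. The processing and regulator median of 0.99 was 0.78 and 0.81 on the TPM scales, and 0.85 to 1.16 without 1 library. Among single members, H2-M9, at a log2 fold change of 0.09, ran from -0.29 without cKO replicate 2 to 0.39 without cKO replicate 1. Leaving out 1 library moved Cd1d1 between -2.83 and -1.37 and H2-Q10 between 0.25 and 2.35. The cause was not tested.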
